A study of Mus musculus with 6 samples.

Results

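The genes described here encode the receptors through which cells bind collagen: the integrin alpha subunits *Itga1*, *Itga2*, *Itga10* and *Itga11*, their common partner *Itgb1*, and the discoidin domain receptors *Ddr1* and *Ddr2*. They were chosen by symbol, 7 of the 44788 gene symbols in the count table. All 7 had enough reads to enter the test, as did 14550 symbols in all.

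RNA-seq was performed on whole tail tendons of C57BL/6 mice with an Ion Proton sequencer, in 3 wild-type (WT) libraries and 3 libraries from mice lacking *Mkx* (Mkx-/-). *Mkx* encodes Mohawk, a homeobox transcription factor of tendon cells. Both groups were untreated and labelled 3 weeks of age, although the study's text gives another age for this experiment. The structure of the *Mkx* allele is not given in the sources used here. Nor is it given whether a library came from 1 mouse or from pooled mice. The p-values therefore measure the spread between these libraries, which may be technical in part.

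Integrins are heterodimers of an alpha and a beta chain that link the extracellular matrix to the actin cytoskeleton. The collagen-binding alpha chains pair only with the beta1 chain and hold collagen through an inserted (I) domain with a bound metal ion, whereas Ddr1 and Ddr2 are receptor tyrosine kinases switched on by triple-helical collagen. Tendon is built mainly of collagen I fibres, which its cells make, bind and pull on.

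The 4 alpha chains share the metal-binding site of the I domain, through which they hold collagen, and the bases that encode it are shown. Each run of 36 bases lies in exon 6 of its gene, within the coding sequence. It is printed 5′ to 3′ on the coding strand from mm9, the build of the deposited files. Capitals mark the codons of the aspartate and the pair of serines that hold the metal. The stretches come from chr13:115820313-115820348 (minus strand) for *Itga1*, chr13:115670826-115670861 (minus strand) for *Itga2*, chr3:96452978-96453013 (plus strand) for *Itga10* and chr9:62583099-62583134 (plus strand) for *Itga11*.
Itga1: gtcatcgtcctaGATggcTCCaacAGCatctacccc
Itga2: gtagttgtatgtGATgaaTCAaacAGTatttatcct
Itga10: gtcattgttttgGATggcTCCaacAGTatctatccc
Itga11: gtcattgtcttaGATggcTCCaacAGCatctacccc
*Itga1* and *Itga11* were identical at 34 of the 36 bases, *Itga10* and *Itga11* at 32, and *Itga1* and *Itga10* at 30. *Itga2* was the most different, with 22 bases identical to *Itga1*, 24 to *Itga11* and 26 to *Itga10*. Over the aligned proteins, translated from the annotated transcripts, identity ranged from 36.3% (Itga2 and Itga10) to 44.7% (Itga10 and Itga11). Ddr1 and Ddr2 shared 56.6% of their aligned residues. Similarity at the base level bears on the counts only where a read could map to more than 1 gene. Of runs of 30 bases, *Itga2*, *Itgb1* and *Ddr1* shared 0 with the protein-coding transcripts of any other gene, and *Itga1* shared 2, both with *Itga11*. Transcripts that do not code for protein were not searched.

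The libraries held 10835070 to 14160301 counts. The targeted gene *Mkx* had 144, 136 and 135 CPM in WT. CPM are counts relative to the library size, scaled by edgeR's trimmed mean of M-values (TMM). Its Mkx-/- libraries had 56.8, 41.4 and 38.9 CPM. It fell by 1.60 on the log2 scale (SE 0.16, edgeR adjusted p = 0.00183), and the reads that remained were not assigned to exons here. WT replicate 3 was the only library with reads of the Y-linked gene *Ddx3y* (301 counts) and the only one with almost no *Xist* (1 count). It thus did not come from the same mice as WT replicates 1 and 2. The labels give no sex. By these genes, 1 WT library and no Mkx-/- library was male, so sex was not balanced between the groups. WT replicate 1 stood apart from the other WT libraries, with *Col1a1* at 130859 CPM against 225743 and 199401. Mkx-/- replicate 3 stood apart in smooth muscle genes, with *Myh11* at 202 CPM against at most 2.75 elsewhere. The tendon genes *Scx*, *Tnmd*, *Fmod* and *Kera* passed the filter on low counts.

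Among the receptor genes, *Itga2* was lower and *Itga11* higher in Mkx-/- tendon, and the other 5 did not pass the test. A gene was termed changed at an edgeR adjusted p under 0.05, and strongly changed if it also differed by more than 2-fold. Changed genes made up 3.18% (higher) and 2.26% (lower) of all genes tested, against 1 higher and 1 lower among the 7 receptors. Strongly changed genes made up 1.89% (higher) and 1.33% (lower) of all genes, against 0 and 1 of the receptors. The libraries of the groups did not overlap for 14.6% (Mkx-/- higher) and 13.6% (Mkx-/- lower) of all genes, against 1 (*Itga11*) and 2 (*Itga2* and *Ddr2*) of the receptors. With so few members these shares describe the receptors and do not set them apart from other genes. The median log2 fold change of the 7 was -0.062, beside -0.0037 for all genes tested.

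**Figure D1:**
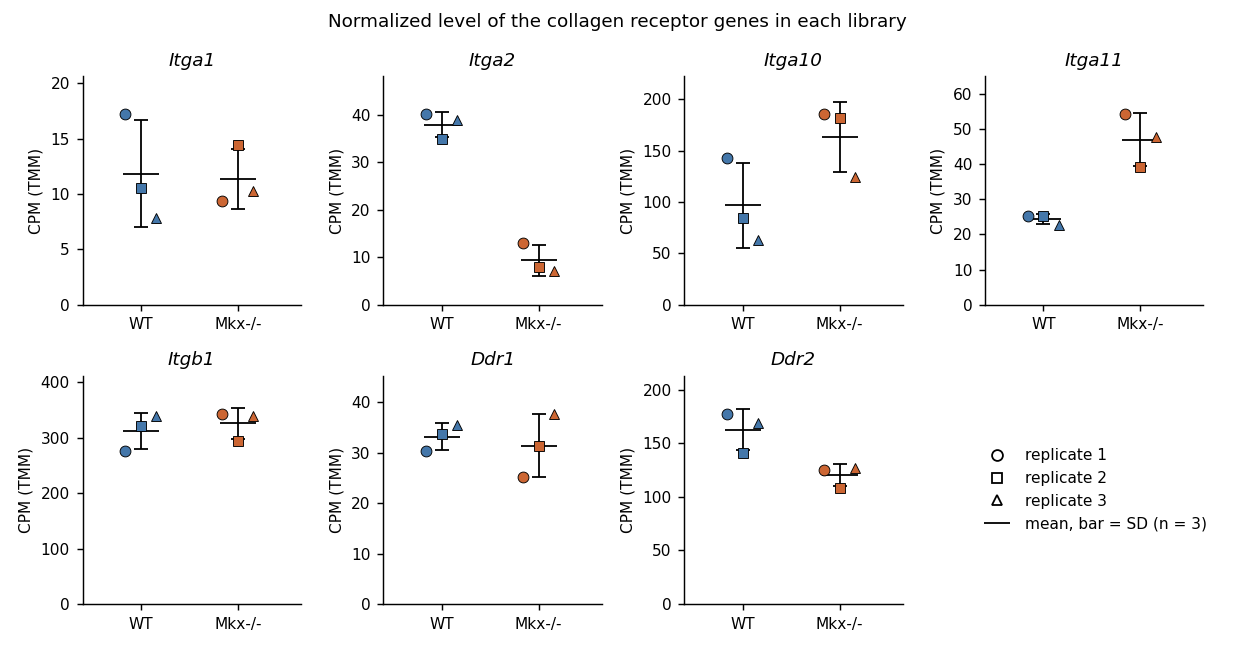
TMM-scaled CPM of the 7 collagen receptor genes in each of the 3 WT and 3 Mkx-/- libraries; points are libraries (symbol by replicate number), horizontal lines are group means and vertical bars are 1 SD to each side (n = 3). The Mkx-/- points of *Itga2* lie at 6.98 to 13.0 CPM, below the WT points at 34.9 to 40.0, and those of *Itga11* lie above the WT points.

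*Itga2*, which encodes the alpha2 chain of a collagen I receptor also carried by platelets and epithelia, lies on chromosome 13 (mm9, chr13:115626124-115722249, minus strand). In WT tendon it had 40.0, 34.9 and 38.8 CPM, and in Mkx-/- tendon 13.0, 7.87 and 6.98 CPM. The highest Mkx-/- library was far below the lowest WT library. The means were 37.9 ± 2.65 CPM in WT and 9.28 ± 3.25 CPM in Mkx-/- (SD, n = 3 each). The log2 fold change was -2.04 (SE 0.22, 95% interval -2.55 to -1.52, edgeR adjusted p = 0.00271). The level in Mkx-/- tendon was thus 4.11-fold lower, with an interval from 2.88-fold to 5.86-fold. The reads behind these values were 508, 356 and 484 in WT and 142, 112 and 88 in Mkx-/-. Without WT replicate 1, WT replicate 3 or Mkx-/- replicate 3, the libraries that stood apart, the log2 fold change lay between -2.04 and -1.87.

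The genes beside *Itga2* on the chromosome did not pass the test. *Itga1* lies 26037 bases away on the same strand, and its log2 fold change was -0.062 (adjusted p = 0.931, edgeR). On the other side, 6909 bases away, *Mocs2*, an enzyme gene of molybdenum cofactor synthesis, had a log2 fold change of -0.043 (adjusted p = 0.889). The gene beyond *Itga1*, *Gm6404*, had 10 to 16 counts per library and a log2 fold change of 0.050.

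The promoters of the 2 receptor genes that changed are shown for the motifs that flank the start of their transcripts. Each window runs from 250 bases before to 50 after the transcription start, taken from RefSeq on GRCm38.p6, which is not the build of the files. Capitals mark the motifs found on either strand of 4 searched: the TATA box (TATAAA), the CCAAT box, the GC box (GGGCGG) and the E-box (CANNTG). The windows are chr13:114932051-114932350 (minus strand) for *Itga2* and chr9:62677605-62677904 (plus strand) for *Itga11*.
Itga2: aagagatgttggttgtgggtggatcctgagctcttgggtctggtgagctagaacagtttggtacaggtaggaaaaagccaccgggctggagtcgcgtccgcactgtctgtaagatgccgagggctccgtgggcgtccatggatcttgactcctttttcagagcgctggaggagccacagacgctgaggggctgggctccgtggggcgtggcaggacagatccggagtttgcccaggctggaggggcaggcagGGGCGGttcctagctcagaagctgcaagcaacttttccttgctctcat
Itga11: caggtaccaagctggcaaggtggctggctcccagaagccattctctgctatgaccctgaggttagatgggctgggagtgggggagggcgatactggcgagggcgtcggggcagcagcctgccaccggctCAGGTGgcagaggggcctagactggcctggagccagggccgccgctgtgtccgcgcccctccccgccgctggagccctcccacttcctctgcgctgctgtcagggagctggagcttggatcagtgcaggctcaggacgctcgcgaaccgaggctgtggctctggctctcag
The *Itga2* window held 1 GC box and none of the other motifs, and 59.3% of its bases were G or C. The *Itga11* window held 1 E-box and none of the others, with 68.0% G or C. Of 32851 promoter windows of this length, 35.7% held a GC box, 72.3% an E-box, 37.4% CCAAT and 13.6% TATAAA, and the median content of G and C was 52.7%. These matches describe letters and not binding.

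Across the 6 libraries, the gene whose log2 CPM followed *Itga2* most closely was *Mkx* itself (Pearson r = 0.998), among 10294 genes that averaged 5 CPM or more. *Fam160a1* and *Pdk1*, a kinase that restrains pyruvate dehydrogenase, came next (r = 0.997 for each). By edgeR, *Fam160a1* fell by 0.59 on the log2 scale (adjusted p = 0.0451) and *Pdk1* by 0.81 (adjusted p = 0.0183). The 6 points share 2 genotypes, so these coefficients mostly describe the step between the groups.

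*Itga11* encodes the alpha11 chain, a collagen I receptor of fibroblasts, and lies at chr9:62525633-62631789 (mm9, plus strand). It had 25.2, 25.2 and 22.8 CPM in WT and 54.2, 39.2 and 47.8 CPM in Mkx-/- libraries. The groups did not overlap, and the Mkx-/- libraries were spread more widely. The WT mean of 24.4 ± 1.38 CPM rose to 47.1 ± 7.54 CPM (SD, n = 3 each). Its log2 fold change was 0.95 (SE 0.15, 95% interval 0.61 to 1.28, edgeR adjusted p = 0.0115). On the linear scale this was 1.93-fold, with an interval from 1.53 to 2.43. Without WT replicate 2 or WT replicate 3 the adjusted p was 0.0546 and 0.0603, at log2 fold changes of 0.95 and 0.88. Without WT replicate 1 or Mkx-/- replicate 3 the log2 fold change was 0.97 and 0.93 (adjusted p = 0.0120 and 0.0417).

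*Itga10* encodes the alpha10 chain, best known from cartilage, and lies at chr3:96449507-96468442 (mm9, plus strand). Its WT libraries had 143, 84.6 and 62.7 CPM and its Mkx-/- libraries 185, 182 and 124 CPM. WT replicate 1 lay above Mkx-/- replicate 3, so the groups overlapped. The means were 96.8 ± 41.5 and 164 ± 34.3 CPM (SD, n = 3 each). Its log2 fold change was 0.76 (SE 0.29, 95% interval 0.083 to 1.43, edgeR adjusted p = 0.174). WT replicate 1, the library with little *Col1a1*, decided this value: without it the log2 fold change was 1.15 (adjusted p = 0.0183).

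*Itga1* encodes the alpha1 chain, a receptor with a preference for collagen IV of basement membranes, at chr13:115748287-115892172 (mm9, minus strand). It had 17.2, 10.5 and 7.85 CPM in WT libraries and 9.34, 14.4 and 10.2 CPM in Mkx-/-. The groups overlapped over nearly their whole range. The log2 fold change was -0.062 (SE 0.29, 95% interval -0.74 to 0.61, edgeR adjusted p = 0.931), an interval too wide to exclude a change of 1.5-fold. *Pelo*, a ribosome rescue factor encoded in an *Itga1* intron on the same strand, shares 0 exonic bases with it and had a log2 fold change of 0.46 (adjusted p = 0.143), with all Mkx-/- libraries above all WT libraries.

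*Itgb1*, at chr8:131209554-131257100 (mm9, plus strand), encodes the beta1 chain that every collagen-binding alpha chain needs. It had 276, 321 and 340 CPM in WT and 343, 294 and 340 CPM in Mkx-/-. The values of the groups were interleaved. The means were 312 ± 32.9 and 326 ± 27.3 CPM (SD, n = 3 each), with a log2 fold change of 0.062 (SE 0.14, 95% interval -0.25 to 0.38, edgeR adjusted p = 0.837).

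*Ddr2*, at chr1:171902439-172040632 (mm9, minus strand), encodes the discoidin domain receptor of mesenchymal cells, which binds fibrillar collagens. Its WT libraries had 177, 141 and 169 CPM and its Mkx-/- libraries 125, 108 and 127 CPM. Every Mkx-/- value was below every WT value, but the gap between the nearest libraries was small. The log2 fold change was -0.43 (SE 0.14, 95% interval -0.75 to -0.12, edgeR adjusted p = 0.103), and DESeq2 gave -0.44 with an adjusted p of 0.0493.

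*Ddr1*, the discoidin receptor of epithelia, lies at chr17:35818512-35841566 (mm9, minus strand). It had 30.3, 33.7 and 35.6 CPM in WT and 25.2, 31.3 and 37.7 CPM in Mkx-/-, and the WT libraries lay inside the range of the others. The log2 fold change was -0.079 (SE 0.16, 95% interval -0.45 to 0.29, edgeR adjusted p = 0.824). It overlaps *Gm4577* on the opposite strand by 216 exonic bases, and whether the counting used strand is not given in the sources used here.

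**Figure D2:**
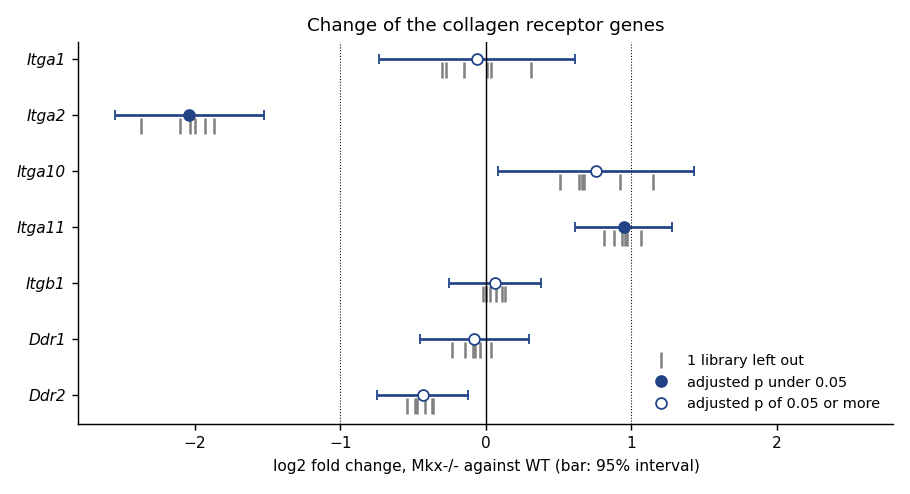
Log2 fold change of each receptor gene (Mkx-/- against WT, edgeR) with its 95% interval; filled points have an adjusted p under 0.05 and grey ticks give the value with 1 library left out. *Itga2* at -2.04 and *Itga11* at 0.95 are filled, and the ticks of *Itga10* range from 0.51 to 1.15.

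Levels of different genes were compared as RPKM, the CPM divided by the exon length in kilobases. In WT tendon the order was *Itgb1* at 76.5 ± 8.07 RPKM, *Ddr2* at 19.3 ± 2.25, *Itga10* at 18.7 ± 8.01, *Itga2* at 9.00 ± 0.628, *Ddr1* at 6.95 ± 0.555, *Itga11* at 4.76 ± 0.269 and *Itga1* at 1.48 ± 0.600 (SD, n = 3). Only the ranges of the neighbours *Ddr2* and *Itga10* overlapped. In Mkx-/- tendon *Itgb1* was again first at 79.9 ± 6.69 RPKM, followed by *Itga10* at 31.6 ± 6.61, *Ddr2* at 14.3 ± 1.22, *Itga11* at 9.18 ± 1.47, *Ddr1* at 6.58 ± 1.31, *Itga2* at 2.20 ± 0.772 and *Itga1* at 1.42 ± 0.338. There the ranges of *Itga11* and *Ddr1*, and those of *Itga2* and *Itga1*, overlapped.

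**Figure D3:**
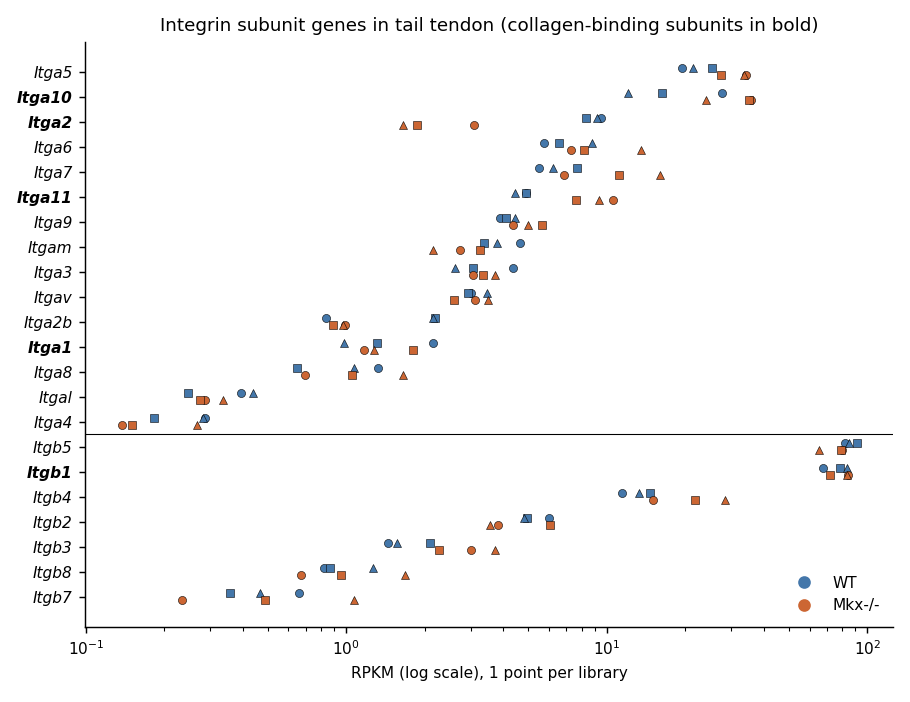
RPKM (log axis) of the integrin subunit genes that passed the filter in WT (blue) and Mkx-/- (orange) tendon, 1 point per library with its symbol by replicate number, alpha subunits above the line and beta subunits below it. The *Itga2* points average 9.00 RPKM in WT and 2.20 in Mkx-/-, while *Itga10* stays second among the alpha subunits.

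Among the 15 alpha subunit genes tested, *Itga10* was second by mean RPKM in both genotypes, after *Itga5*, part of the fibronectin receptor. *Itga2* was at rank 3 in WT and rank 10 in Mkx-/-, and *Itga11* at ranks 6 and 5. Of the 7 beta subunit genes, *Itgb1* was at rank 2 in WT and rank 1 in Mkx-/-, where *Itgb5*, a partner of the alpha v chain, went from 86.1 to 74.8 RPKM. Ranks carry no test.

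The collagen-binding alpha chains share the beta1 partner, and the share of each in the summed alpha RPKM was computed. *Itga2* made up 21.5%, 26.9% and 34.4% of this sum in WT and 6.11%, 4.03% and 4.57% in Mkx-/-. The share of *Itga10* was 62.5%, 52.9% and 45.3% in WT and 70.7%, 75.6% and 66.1% in Mkx-/-. *Itga11* made up 11.1%, 15.9% and 16.6% in WT and 20.9%, 16.5% and 25.7% in Mkx-/-. The *Itga2* and *Itga10* shares of the groups did not overlap, and those of *Itga11* did by a small margin. Shares in a library add up to the whole, so a smaller *Itga2* share by itself makes the others larger. The *Itga10* CPM of the groups overlapped, and that gene did not pass the test (edgeR adjusted p = 0.174). The sum itself was 26.7 to 44.1 RPKM in WT and 36.2 to 50.6 RPKM in Mkx-/-, and *Itgb1* was at 1.53 to 3.11 times the sum in WT and 1.56 to 2.30 times in Mkx-/-.

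**Figure D4:**
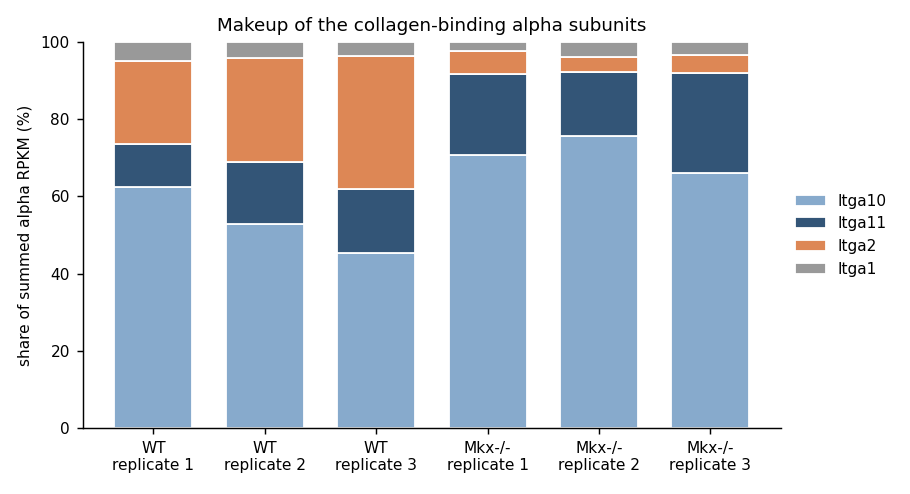
Share of each alpha chain gene in the summed RPKM of *Itga1*, *Itga2*, *Itga10* and *Itga11*, in percent, as stacked bars for each library. *Itga2* takes 21.5% to 34.4% in WT and 4.03% to 6.11% in Mkx-/-, and *Itga10* is the largest segment in all 6 libraries.

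Ratios within a library do not depend on how libraries are scaled, and 3 were compared. The ratio of *Itga2* to *Itga1* was 4.42, 6.30 and 9.34 in WT and 2.64, 1.04 and 1.30 in Mkx-/-, lower in every Mkx-/- library, with a difference of -2.06 in log2 (exact two-sided permutation test, p = 0.1, adjusted p = 0.3). With 3 against 3 libraries this test cannot go below 0.1. *Itga10* to *Itga11* was 5.61, 3.31 and 2.72 in WT and 3.38, 4.58 and 2.57 in Mkx-/-, overlapping, with a difference of -0.11 (exact permutation p = 0.8). *Ddr1* to *Ddr2* was 0.302, 0.421 and 0.372 in WT and 0.355, 0.509 and 0.524 in Mkx-/-, overlapping, with a difference of 0.33 (exact permutation p = 0.3, adjusted p = 0.45).

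Of 20 collagen chain genes that serve as ligands, 19 were tested, with a median log2 fold change of -0.0058. By edgeR 5 changed higher and 1 lower, beside 3.18% and 2.26% of all genes. *Col5a1* rose most among them (log2 fold change 2.16, edgeR adjusted p = 0.00141), followed by *Col5a2* (1.25, adjusted p = 0.00445), which together form the collagen V that starts fibrils. The basement membrane genes *Col4a2* (1.10) and *Col4a1* (0.99) and the fibrillar gene *Col3a1* (1.09, from 4615 ± 729 to 9806 ± 145 CPM, SD, n = 3) also rose, each value in log2. *Col11a2*, a chain of cartilage collagen XI, fell by 1.72 on the log2 scale (adjusted p = 0.0107). The main fibre genes did not pass the test: *Col1a1* had a log2 fold change of -0.68 (adjusted p = 0.287) and *Col1a2* of -1.02 (adjusted p = 0.0933). When WT replicate 3 was left out 2 changed higher, and when Mkx-/- replicate 2 or replicate 3 was left out 3 did.

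Of 31 genes for integrin activators and adaptors, 29 were tested and 0 changed by edgeR in either direction. At an unadjusted p under 0.05, 8 were higher and 2 lower, beside 12.5% and 10.1% of all genes tested. DESeq2 called 6 higher and 2 lower after adjustment, beside 5.41% and 4.04% of all genes. The median log2 fold change was 0.19. The most abundant were *Tns1*, which encodes tensin, with a log2 fold change of -0.10, *Tln1*, which encodes the integrin activator talin, with -0.024, and *Flna*, which encodes the actin linker filamin, with 0.19.

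Of 24 genes for Ddr effectors and regulators, 23 were tested, with a median log2 fold change of 0.0067. By edgeR 3 changed higher and 0 lower, beside 3.18% and 2.26% of all genes. *Mmp2*, which encodes a gelatinase, averaged 303 ± 24.4 CPM in WT and rose to 657 ± 49.0 CPM (SD, n = 3 each), or by 1.12 on the log2 scale (edgeR adjusted p = 0.00380). *Stat5b* (log2 fold change 0.80, adjusted p = 0.0157) and *Stat5a* (0.73, adjusted p = 0.0385), which encode transcription factors, also rose. *Mmp14*, which encodes the membrane-bound collagenase that activates Mmp2, had a log2 fold change of 0.24 (adjusted p = 0.383), and *Rac1*, a small GTPase of the cytoskeleton, of 0.13. The number changed higher was 1 without WT replicate 2, WT replicate 3, Mkx-/- replicate 1 or Mkx-/- replicate 2.

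Of 10 genes for other collagen receptors, 6 were tested, with a median log2 fold change of -0.42. By edgeR 0 changed higher and 1 lower, beside 3.18% and 2.26% of all genes. *Mrc1*, the mannose receptor of macrophages, fell from 48.7 ± 10.3 to 22.0 ± 3.19 CPM (SD, n = 3 each, log2 fold change -1.14, edgeR adjusted p = 0.0135), and without Mkx-/- replicate 3 or with the replicate block 0 genes of this list changed lower. *Mrc2*, the collagen uptake receptor of fibroblasts, had a log2 fold change of -0.29, and *Gpr56* of 0.92 (adjusted p = 0.0834). At an unadjusted p under 0.05, 1 was higher and 1 lower, beside 12.5% and 10.1% of all genes. DESeq2 called 1 higher and 1 lower, beside 5.41% and 4.04% of all genes. Of 21 other integrin subunits, 17 were tested and 0 changed by edgeR, with 4 higher and 2 lower at an unadjusted p under 0.05 (12.5% and 10.1% of all genes) and 4 higher by DESeq2 (5.41% of all genes). *Itga5* had a log2 fold change of 0.52 (adjusted p = 0.0834), *Itgb4* of 0.73 and *Itgb5* of -0.20.

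Whole tendon holds several cell types, and fewer cells of a type and less RNA per cell cannot be told apart in these libraries. Sums of CPM here and below are over the tested genes of each list. Platelet genes, given because platelets carry *Itga2*, summed to 32.1 to 41.5 CPM in WT and 24.8 to 29.3 CPM in Mkx-/-. Of 8 platelet genes 3 were tested and 0 changed by edgeR, with 2 lower at an unadjusted p under 0.05 (10.1% of all genes). These were *Pf4*, a platelet chemokine and the most abundant of the list, at 25.0 to 27.6 CPM in WT and 17.1 to 22.2 CPM in Mkx-/- (log2 fold change -0.46, adjusted p = 0.0884), and *Itga2b*, the alpha chain of the fibrinogen receptor, with -0.86 (adjusted p = 0.180). All Mkx-/- libraries were below all WT libraries for *Pf4*, the direction of *Itga2*, while *Itga2b* overlapped. *Gp1bb* had a log2 fold change of 0.25, *Gp6* was at 0 counts in every library, *Gp9* at 0 to 2, *Ppbp* at 0 to 6 and *Treml1* at 4 to 9.

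Epidermal and epithelial genes, cells that also carry *Itga2* and *Ddr1*, summed to 20.9 to 39.3 CPM in WT and 46.2 to 55.6 CPM in Mkx-/-, and macrophage and leukocyte genes to 472 to 523 and 311 to 377 CPM. In the last list 2 of 11 tested genes changed lower (2.26% of all genes), *Emr1* (log2 fold change -1.09) and *Csf1r* (-0.63). The number was 1 without WT replicate 2, WT replicate 3, Mkx-/- replicate 2 or Mkx-/- replicate 3. Of 8 epidermal genes tested 0 changed by edgeR. At an unadjusted p under 0.05, 5 were higher and 1 lower, beside 12.5% and 10.1% of all genes. DESeq2 called 2 higher and 1 lower, beside 5.41% and 4.04% of all genes.

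Cartilage genes, beside *Itga10*, summed to 2333 to 3230 CPM in WT and 2816 to 3875 CPM in Mkx-/-. Of 9 tested, 2 changed higher (3.18% of all genes), *Acan* (log2 fold change 2.20) and *Matn3* (1.45). *Col2a1* had -0.084, and *Matn1* was at 0 counts throughout. DESeq2 called 4 higher, beside 5.41% of all genes. Endothelial genes, cells that carry *Itga1*, summed to 70.4 to 88.0 CPM in WT and 123 to 192 CPM in Mkx-/-. Of 11 tested, 10 had a positive log2 fold change, with a median of 0.93. By edgeR 1 changed higher (*Erg*, 2.12), beside 3.18% of all genes, and 2 did without Mkx-/- replicate 1. By DESeq2 5 did (5.41% of all genes). *Erg* had 44.1, 37.1 and 26.9 CPM in the Mkx-/- libraries. Among these libraries the other tested genes except *Emcn* were highest in replicate 3, as *Pecam1* at 8.88, 9.27 and 27.5 CPM. *Tek* had a log2 fold change of 0.019 and *Emcn* of -0.26.

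Smooth muscle and pericyte genes summed to 196 to 237 CPM in WT and to 231, 209 and 1028 CPM in Mkx-/-, the last in replicate 3. *Cnn1* of this list was not tested and is not in the sums. It had 285 counts in Mkx-/- replicate 3 and 0 to 2 in the other libraries. Of 9 tested 0 changed by edgeR. At an unadjusted p under 0.05, 5 were higher (12.5% of all genes), and DESeq2 called 1 higher (5.41% of all genes). Skeletal muscle genes summed to 104 to 463 and 633 to 3288 CPM. By DESeq2 7 of 16 changed higher (5.41% of all genes), and by edgeR 3 did (3.18% of all genes). That count rested on single libraries: it was 13 when WT replicate 1 was left out, 5 for Mkx-/- replicate 3, and 0 for WT replicate 2, WT replicate 3, Mkx-/- replicate 1 or Mkx-/- replicate 2.

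Schwann cell genes summed to 8146 to 10775 and 12650 to 23481 CPM. Of 8 tested 0 changed by edgeR, although 8 were higher at an unadjusted p under 0.05 (12.5% of all genes). By DESeq2 8 changed higher (5.41% of all genes). With edgeR 8 changed higher when Mkx-/- replicate 1 was left out and 2 with the replicate block. Of the 10 tendon cell genes, 8 had a negative log2 fold change and the median was -0.55. *Thbs4*, a matrix glycoprotein of tendon, rose by edgeR (1.26), a call lost without WT replicate 2, without WT replicate 3 and with the replicate block. *Mkx* fell, as given above, and was the only one of the list to do so by edgeR (2.26% of all genes). Without WT replicate 1 or WT replicate 2, 2 were lower, and by DESeq2 5 were (4.04% of all genes). The early tendon factor *Scx* had -1.14 (adjusted p = 0.106) and *Egr1* -1.13 (adjusted p = 0.0771). The part of these cell types in the values of the receptor genes was not tested.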

How the data were processed

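Total RNA of tail tendons was made into libraries by the authors with the Ion Total RNA-Seq Kit and sequenced on an Ion Proton. Per the study's methods and the submitters' processing notes, adaptors and low-quality reads were removed and reads were aligned to mm9 with MapSplice. The deposited values are raw read counts per gene symbol in 1 table of all 6 libraries. The counting program, gene annotation and strand setting are not given in the sources used here. The depth was 10835070 to 14160301 counts per library, so low genes are measured with few reads.

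Counts were tested with edgeR 4.0.16 in R 4.3.3 (filterByExpr, TMM scaling, quasi-likelihood test, Benjamini-Hochberg adjustment over 14550 genes, genotype only). 0 columns were left unused. Groups were taken from the genotype labels. DESeq2 1.42.0, the program the study used, other scalings and filters, a replicate block, a test against a 2-fold change and leaving out each library were alternatives. The scripts were tested on simulated data. Replicates of a group differed by more than counting noise (chi-square per degree of freedom 7.59 to 36.4), so no library was repeated. RPKM used the union of exons in GENCODE vM1 on mm9. Ratios used a pseudocount of 0.5 counts and exact permutation tests, and confidence intervals are at 95%. All p-values from edgeR and DESeq2 rest on 3 libraries per group.

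The receptor genes and the gene lists were chosen with earlier results of these data known. Named genes are the 7 receptors, genes called past both thresholds (at most 5 by p) and the 3 most abundant of each list, the 3 genes most like a strongly changed receptor, *Mkx*, and chromosomal neighbours and overlapping genes. *Col4a1*, *Stat5a*, *Stat5b* and single marker genes outside this rule were chosen after their values were seen. Results on some genes that the rule would name are not reported here.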

Additional observations from a re-analysis of the deposited data

How the results depend on the processing

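*Itga2* kept its direction and stayed past the threshold in all 17 alternatives, with log2 fold changes from -2.37 to -1.80 and adjusted p from 4.17e-14 to 0.0393. *Itga11* stayed past it in 14 of 17. Its log2 fold change was 0.95 in edgeR's test against a 2-fold change (adjusted p = 1), and 0.81 to 1.06 with 1 library left out. *Itga10* passed the threshold at 0.77 with a filter of 1 count in any library (adjusted p = 0.0462) and at 1.32 without WT replicate 1 and Mkx-/- replicate 3, and ranged from 0.51 to 1.15 with 1 library left out. *Ddr2* passed with DESeq2 (-0.44).

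Receptors changed higher numbered 2 with the filter of 1 count, 0 against a 2-fold change, 2 without those 2 libraries and 0 to 2 with 1 library left out, and receptors changed lower numbered 2 with DESeq2. Strongly changed higher receptors numbered 1 with scaling by library size only, 1 without the 2 libraries and 0 to 1 with 1 left out. That scaling and the joint removal were chosen after seeing the data. The scaling moved the median of all genes to 0.25 and turned *Itga1* (0.17) and *Ddr1* (0.19) to positive values, neither past the threshold.

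With DESeq2, changed genes numbered 5 higher and 3 lower for ligands, 6 and 2 for adaptors and 4 and 1 for Ddr effectors. They numbered 1 and 1 for other collagen receptors and 4 and 0 for other integrins, beside 5.41% and 4.04% of all genes. With 1 library left out, counts ranged from 2 to 5 (ligands higher), 0 to 1 (adaptors higher), 1 to 4 and 0 to 1 (Ddr effectors higher and lower), 0 to 1 (other collagen receptors, each way) and 0 to 2 and 0 to 1 (other integrins higher and lower). The *Itga10* to *Itga11* difference ranged from -0.34 to 0.19.

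Over all genes, 463 higher and 329 lower became 787 and 588 (DESeq2), 917 and 562 (filter of 1 count), 34 and 41 (against 2-fold), 1358 and 197 (library size scaling), and 117 to 530 and 127 to 432 with 1 library left out. Same-numbered libraries deviated together in no regular way (correlations -0.0021, -0.31 and 0.38). So few libraries cannot decide whether the numbers pair them. With the replicate block, 264 and 170 genes changed, 0 other collagen receptors changed lower, and *Itga2* was at -2.07 and *Itga11* at 0.94. Changes in *Itga1* and *Ddr1* of the size of their intervals were not detectable at this depth and spread.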
